A study of Mus musculus with 2 samples.

Results

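The eosinophil lineage cells of Lineage−, cKit+ mouse bone marrow were picked out of 2 single-cell RNA libraries by the mRNAs of 2 granule proteins, Prg2 (major basic protein) and Epx (eosinophil peroxidase). A barcode was kept if it held at least 500 genes and had under 10% of its UMIs (unique molecular identifiers, 1 per captured mRNA molecule) from mitochondrial genes. It was taken as an eosinophil lineage cell if Prg2 plus Epx made up at least 0.2% of its UMIs, Epx had at least 2 UMIs, and the basophil genes Prss34 plus Mcpt8 stayed under 0.1%. These limits gave 142 cells of 14898 kept barcodes, 97 in the control and 45 in the knockout library. The levels of Prg2, Epx, Prss34 and Mcpt8 in these cells are therefore a description of how they were chosen.

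Control mice were C57BL/6 with floxed Trsp alleles (Trsp f/f), and knockout mice carried in addition Mx1-Cre (Trsp f/f:Mx1-Cre). Trsp encodes the transfer RNA for selenocysteine, and the Mx1 promoter that drives Cre responds to interferon. Both genotypes were injected with 500 µg of polyinosine-polycytidylic acid (pI-pC), an interferon inducer, 3 times at 7 weeks as the series record words it, and marrow was taken 9 weeks after the last injection. Mx1-Cre is active in many cell types besides blood, so effects inside and outside the lineage cannot be told apart. Each genotype is 1 library, the sources used here do not give its number of mice, and no test between genotypes is possible: intervals below are 95% and cover counting error only.

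The 97 control cells held 1608338 UMIs in sum and the 45 knockout cells 628793. Their median depth was 16057 and 10622 UMIs, below the 20473 and 20952 UMIs of the other kept barcodes. Scrublet, a doublet caller, marked 2 control and 0 knockout cells of the lineage, and all stayed in. The libraries share 39 barcode sequences, of which 1 belongs to a knockout eosinophil lineage cell and 0 to control ones. Trsp itself was not analysed here, and the selenoprotein mRNAs below are the available check of the genotype labels.

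Eosinophils are granulocytes that defend against parasites and take part in allergic inflammation. They arise in marrow from progenitors under interleukin-5 and fill large granules with major basic protein, peroxidase and a family of ribonucleases. The granule mRNAs are most abundant early, in dividing promyelocyte-stage cells, and GATA1, C/EBPε and XBP1 are among the factors the lineage needs. Mature eosinophils carry Siglec-F and the eotaxin receptor CCR3 and lose cKit, so a cKit+ sort samples the early part of the lineage.

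The upstream sequences of 4 granule genes that the selection rule did not use are shown because the Ear genes below differ in where and how much they were found, although Ear1 and Ear2 are near copies. Each run is the 250 bases before the RefSeq start on GRCm38.p6 (mm10), read 5′ to 3′ on the gene's strand. Prg3 lies on chr2:84987965-84988214 (plus strand), directly before the gene as GENCODE M21 annotates it. Ear1 (chr14:43819640-43819889, minus strand), Ear2 (chr14:44102404-44102653, plus strand) and Ear6 (chr14:51853518-51853767, plus strand) are eosinophil-associated ribonucleases. The windows of Ear1 and Ear6 reach into the gene as GENCODE draws it, and that of Ear2 ends directly before it. Capitals mark matches on either strand. The motif of GATA factors was searched as AGATAA. Its variant with another first letter, TGATAA, was searched too. The motif of C/EBP factors was searched as TTGCNNAA, and no 2 matches overlap here.
Prg3: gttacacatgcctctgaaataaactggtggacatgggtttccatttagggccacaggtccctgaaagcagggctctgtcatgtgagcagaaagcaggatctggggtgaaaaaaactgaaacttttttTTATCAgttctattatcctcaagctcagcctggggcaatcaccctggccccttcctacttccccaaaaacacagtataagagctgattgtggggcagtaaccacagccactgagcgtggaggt
Ear1: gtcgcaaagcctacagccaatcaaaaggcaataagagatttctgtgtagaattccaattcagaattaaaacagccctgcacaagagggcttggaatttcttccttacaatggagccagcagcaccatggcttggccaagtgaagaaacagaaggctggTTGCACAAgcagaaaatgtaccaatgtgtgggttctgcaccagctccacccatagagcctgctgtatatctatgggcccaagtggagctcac
Ear2: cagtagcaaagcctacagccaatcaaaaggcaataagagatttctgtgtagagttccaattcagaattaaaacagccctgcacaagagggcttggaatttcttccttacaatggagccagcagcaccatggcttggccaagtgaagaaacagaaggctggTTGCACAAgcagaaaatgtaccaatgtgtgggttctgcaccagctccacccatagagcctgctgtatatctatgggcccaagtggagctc
Ear6: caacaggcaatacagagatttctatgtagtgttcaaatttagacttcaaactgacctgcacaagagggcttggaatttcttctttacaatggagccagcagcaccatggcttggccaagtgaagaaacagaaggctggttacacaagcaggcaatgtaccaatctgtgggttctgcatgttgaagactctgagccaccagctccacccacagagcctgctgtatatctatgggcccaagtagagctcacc
Prg3 held 1 GATA match, which starts 123 bases before the start site, and no C/EBP match. Ear1 and Ear2 each held the C/EBP match TTGCACAA, 92 and 90 bases before the start, and Ear6 held neither motif. Over the 32851 mouse promoters of the same table, 16.6% held the GATA motif and 9.56% the C/EBP motif in the same 250 bases, so each match is a description only. Epx held neither, and Prg2 had no entry. The Ear1 and Ear2 windows were 97.6% identical, and Ear6 was 78.2% identical to Ear1. The last 400 transcript bases, where 3′ reads fall, were 95.5% identical between Ear1 and Ear2 but 68.8% between Ear1 and Ear6. Counts of Ear1 and Ear2 may thus have been split between these near copies by the authors' counting, while Ear6 stands further apart.

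Prg2 was by far the most abundant of the granule mRNAs. It stood at 31153 CPM (counts per 1000000, the gene's UMIs summed over the cells and scaled to that many UMIs of all genes) in control and 35484 in knockout cells, against 149 and 115 CPM in all other kept barcodes. Epx stood at 1641 and 1274 CPM against 6.34 and 5.10. Prg3, a homologue of major basic protein that the rule did not use, stood at 1602 and 1683 CPM against 10.3 and 7.64, and 95 of 97 control and 44 of 45 knockout cells held it. Ear6 stood at 148 CPM (130 to 168) in control and 254 CPM (217 to 297) in knockout cells and at 0.278 and 0.328 CPM elsewhere, a ratio of 532 and 776 times and the highest of the genes with at least 50 CPM in both libraries. Of the 4 markers that name the lineage, Prg2 and Epx were high by the rule. Prg3 and Ear6, which the rule did not use, were also far above the other kept barcodes.

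The ribonucleases were patchy from cell to cell where Prg2 and Prg3 were not. Ear1 was found in 25 of 97 control and 11 of 45 knockout cells, Ear2 in 40 and 11, and Ear6 in 49 and 28. In barcodes with at least 5 UMIs of Dntt, a lymphoid gene, which should lack granule mRNA, Ear6 was found in 1 of 424 control and 1 of 473 knockout barcodes at median depths of 15940 and 18645 UMIs. Ear1 counts were also uneven: 1 control cell held 26.5% of all Ear1 UMIs of its library and 1 knockout cell 40.2%. Ear10 and Ear14 had 0 UMIs in the eosinophil lineage cells of both libraries, and Ear4 and Ear5 were not analysed here.

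Several surface receptors of the mature eosinophil were low or absent. Il5ra, the interleukin-5 receptor chain that defines committed eosinophil progenitors, stood at 33.0 CPM in control and 62.0 CPM in knockout cells against 0.491 and 0.656 CPM elsewhere. It was found in 33 of 97 and 19 of 45 cells, and in 1 of 424 and 1 of 473 lymphoid barcodes. Siglecf stood at 38.5 and 60.4 CPM against 9.30 and 8.70, and at 16.2 and 21.5 CPM in basophil or mast barcodes. The eotaxin receptor Ccr3, the complement receptor C3ar1 and the histamine receptor Hrh4 had 0 UMIs in all 142 cells, which allows up to 2.11% of cells with a UMI. Kit, the receptor of the sort, stood at 102 and 110 CPM, near the 98.6 and 113 CPM of other kept barcodes, and Cd34 at 156 and 167 CPM. Some other listed receptors were less scarce. In the 74 control cells with at least 5000 UMIs, Itga4 held 214 UMIs, Ltb4r1 134 and Cxcr4 114, beside 149 of Kit. The 16 listed receptors and surface proteins summed to 581 and 752 CPM, against 385 and 433 CPM elsewhere. The label eosinophil lineage thus rests on Prg3 and Ear6 besides the rule's own Prg2 and Epx. Il5ra was found in a part of the cells, Siglecf was low and Ccr3 was missing.

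Among 2561 genes with at least 50 CPM in the cells of both libraries, 73 (2.85%) were at least 2-fold higher than in other kept barcodes in both. The cells were chosen on measured genes, so this is a description. Besides the granule genes, Cebpe, the C/EBP factor of granulocyte maturation, stood at 619 and 608 CPM, against 74.3 and 62.5 CPM elsewhere and 152 and 155 CPM in neutrophil progenitor barcodes (those with Elane, Prtn3 and Ctsg at 1% or more of UMIs). Gata1 stood at 32.3 and 46.1 CPM, close to the 32.8 and 34.3 CPM of basophil or mast barcodes (those with Prss34 plus Mcpt8 at 0.2% or more) and far above the 0.436 and 0.328 CPM of neutrophil progenitor ones. Gata2 showed another order, with 68.4 and 73.2 CPM in eosinophil lineage cells against 691 and 818 CPM in basophil or mast barcodes. The basophil or mast class includes barcodes that are rich in Prg2 too, since 26 control and 10 knockout barcodes that passed the Prg2 and Epx limits were left out of the lineage for Prss34 plus Mcpt8.

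Several leading genes belong to granules, secretion or signalling rather than to the list of lineage genes. Ldhc, a lactate dehydrogenase best known from testis, stood at 187 and 170 CPM, 110 and 111 times the other kept barcodes and above the 37.5 and 29.4 CPM of basophil or mast barcodes. Arsb, the lysosomal arylsulfatase B, stood at 374 and 528 CPM against 147 and 153 in basophil or mast barcodes. Syne1, a nuclear envelope protein, stood at 187 and 245 CPM against 92.8 and 130. Other leading genes were as high in basophil or mast barcodes: Cd63, a tetraspanin of granule membranes, at 1740.3 and 1929 CPM against 1879 and 1907, and Hdc, the enzyme that makes histamine, at 351 and 329 CPM against 370 and 380 CPM. Rnase12, Itga2b (integrin αIIb) and Ikzf2 (the zinc finger factor Helios) likewise were at or above the eosinophil lineage level there, at 278, 244 and 335 CPM in the control basophil or mast barcodes against 181, 170 and 270 CPM.

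**Figure D1:**
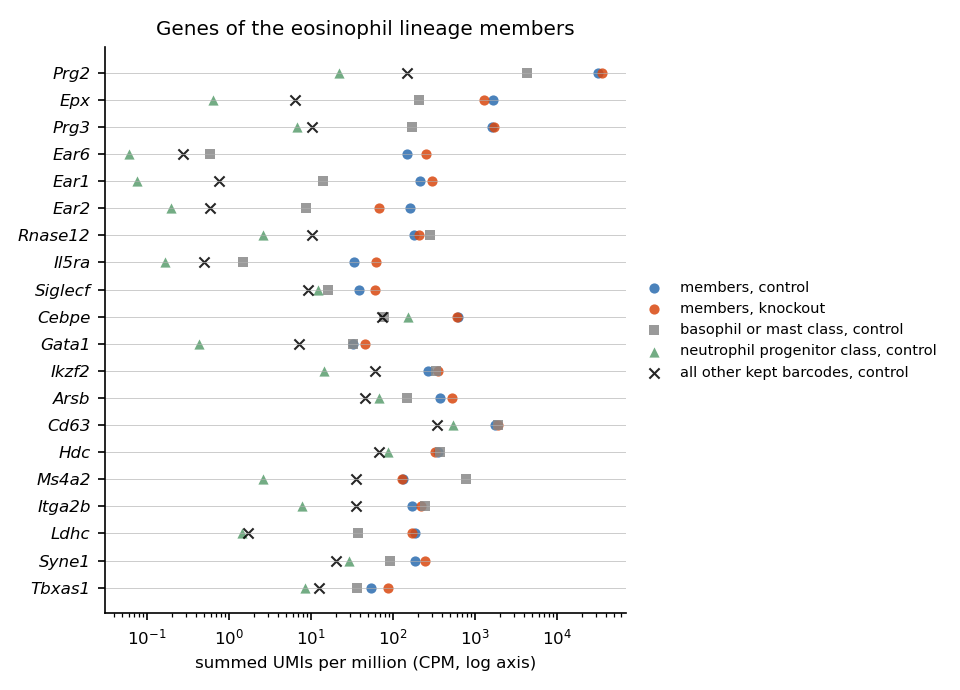
Summed level of 20 genes, in CPM on a log axis, in the eosinophil lineage cells of each library (circles) and, for the control library, in basophil or mast barcodes, neutrophil progenitor barcodes and all other kept barcodes. Prg2 and Epx, which the rule used, stand to the right of the other classes, as do Prg3 and the Ear genes. Cd63, Hdc and Ikzf2 do not stand apart from basophil or mast barcodes.

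Neutrophil granule mRNA was present in the eosinophil lineage cells, at 13061 CPM for the 6 neutrophil progenitor markers in control and 9388 CPM in knockout cells, below the 16437 and 12729.9 CPM of all other kept barcodes. Mpo, the neutrophil peroxidase, was found in 97 of 97 control and 45 of 45 knockout cells, at 5859 and 5057 CPM. In lymphoid barcodes 96.9% and 95.8% held at least 1 Mpo UMI at only 799 and 637 CPM, so the share of cells with an Mpo UMI is not read as a mark of the lineage. How much of it is free RNA and how much the barcodes' own was not tested. Elane, neutrophil elastase, stood at 2100.3 and 1275 CPM against 155 and 149 CPM in lymphoid barcodes and 8836 and 8110.2 CPM in neutrophil progenitor ones. Prg2 in lymphoid barcodes, at 12.3 and 7.75 CPM, gives the level of an eosinophil gene there. Macrophage markers other than Vcam1 summed to at most 1 UMI, lymphoid markers to 50.4 and 31.8 CPM, and erythroid markers to 14.3 and 25.4 CPM.

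The cells formed a range rather than a uniform group. Prg2 plus Epx made up 0.223% to 13.3% of UMIs in control cells (median 4.69%) and 0.232% to 11.5% in knockout cells (median 5.78%). The control cells nearest the limit stood at 0.223%, 0.303% and 0.309% inside and 0.113%, 0.108% and 0.0368% outside, and the knockout cells at 0.232%, 0.274% and 0.409% inside and 0.159%, 0.124% and 0.0803% outside. Depth moved with this share: in the lowest of 3 bands of Prg2 plus Epx, cut at 3.09% and 6.71% so that each holds about the same number of pooled cells, the median was 23731 UMIs in control and 27091 in knockout cells. In the highest band it was 4812 and 5724 UMIs. The bands are ranges of a score and not cell types.

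**Figure D2:**
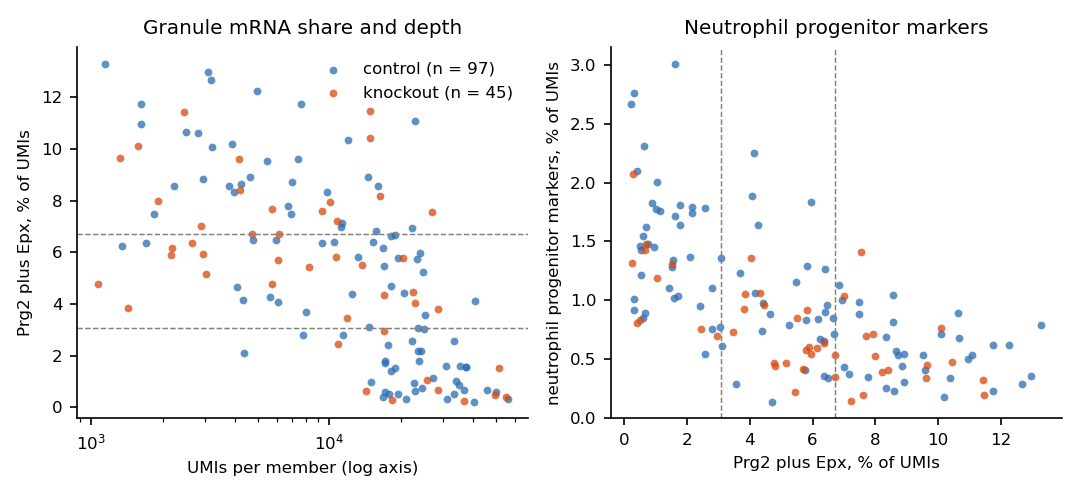
Left, Prg2 plus Epx as a percentage of UMIs against the UMIs of each eosinophil lineage cell (log axis). Right, the summed neutrophil progenitor markers against Prg2 plus Epx, both as a percentage of UMIs. Each point is 1 cell of the control (97) or knockout (45) library, and dashed lines mark the band limits of 3.09% and 6.71%. Cells low in Prg2 plus Epx are deep and rich in neutrophil progenitor markers.

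As Prg2 and Epx filled more of the mRNA, the neutrophil program took less. Control cells held 15836 CPM of the 6 neutrophil progenitor markers in the low band, 10315 in the middle and 6146 in the high band, and knockout cells held 11453, 8235 and 6157 CPM. In control cells Mpo stood at 6789.8 CPM in the low and 3312 CPM in the high band, the larger difference in CPM, and Elane at 2695 and 289 CPM, the larger ratio. Across the cells with at least 5000 UMIs, Spearman's rho between the marker share and Prg2 plus Epx was -0.64 in 74 control and -0.66 in 30 knockout cells. Cells of 1 library share their preparation, and the shares of 1 cell add up to a whole, so these values describe the range only. The marker share also moved with depth, with rho 0.44 and 0.63.

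Division, respiration and secretion genes differed in their order over the bands. The 20 genes of G2 and M phase summed to 2167 and 1989.8 CPM in the low and middle bands of control cells and to 683 CPM in the high band. In knockout cells they summed to 2672, 2871 and 933 CPM. Mki67, the proliferation antigen, stood at 191, 270 and 52.6 CPM over the bands of control cells. The S phase genes differed little across the control bands, at 2236, 2370.1 and 2431 CPM. Nuclear genes of oxidative phosphorylation went from 10138 to 7294 CPM from the low to the high band of control cells, and genes of endoplasmic reticulum folding and translocation from 12061 to 15052 CPM. Hspa5, the main chaperone of that compartment, went from 1294 to 3027 CPM.

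Prg3, Ear1 and Ear6 stood higher in the high than in the low band of control cells, by different amounts. Prg3 went from 1169 CPM in the low to 2729 CPM in the high band of control cells. Prg2 went from 11281 to 85368 CPM, which follows from cutting the bands on Prg2 plus Epx. Ear1 went from 8.23 to 1135 CPM, from 8 to 259 UMIs, and Ear6 from 53.5 to 386 CPM. Cebpe was already at 564 CPM in the low band and reached 850 CPM in the high one. Il5ra stood at 22.6, 51.5 and 43.8 CPM over the 3 bands, on 22, 21 and 10 UMIs, and Kit at 92.5, 120 and 110 CPM, without an order. In knockout cells Ear1 and Ear2 had 0 UMIs in the low band, where 10 cells with 307602 UMIs were read.

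**Figure D3:**
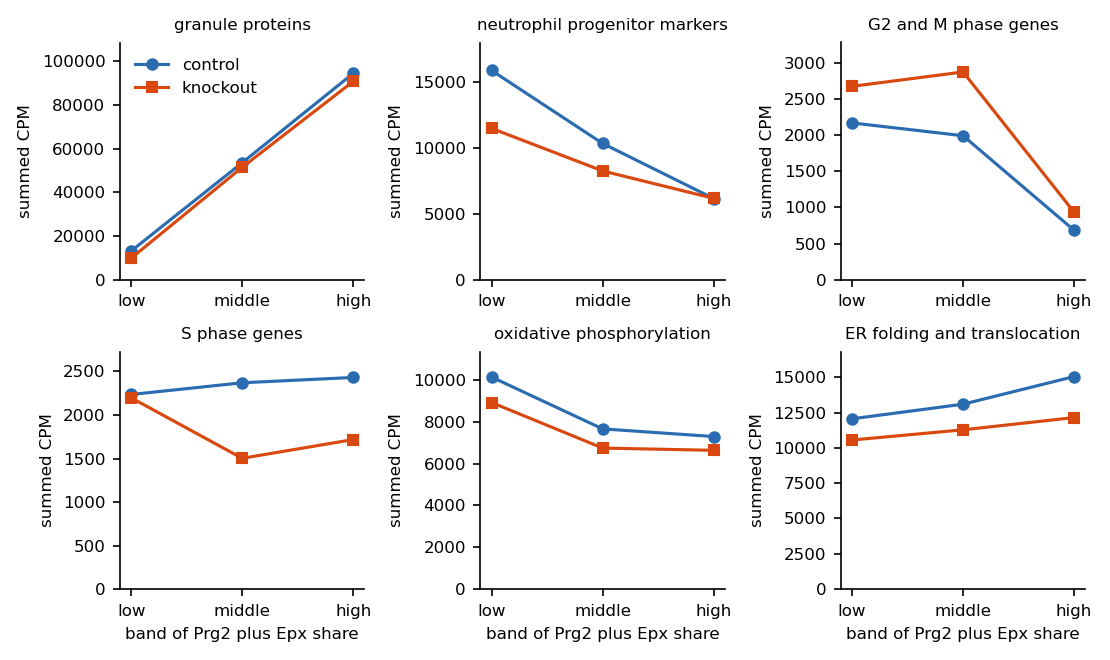
Summed CPM of 6 gene lists in the low, middle and high band of Prg2 plus Epx share, in control (37, 28 and 32 cells) and knockout (10, 20 and 15 cells). Neutrophil progenitor markers and oxidative phosphorylation genes stand lower in the high than in the low band of both libraries, G2 and M phase genes are lowest in the high band, and S phase genes of knockout cells lie below those of control cells in the middle and high bands.

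Eosinophil lineage cells made up a smaller share of the knockout library. They were 97 of 8192 kept control barcodes (1.18%, exact binomial interval 0.961% to 1.44%) and 45 of 6706 knockout ones (0.671%, 0.490% to 0.897%). The control share was 1.76 times the knockout share, a log2 ratio of -0.82 (-1.36 to -0.30). Basophil or mast barcodes had a log2 ratio of -0.43 and neutrophil progenitor barcodes -0.57, while lymphoid barcodes had 0.45, and whether the eosinophil value differs from these was not tested. Among barcodes with at least 5000 UMIs the log2 ratio was -0.80 (-1.46 to -0.17), and after each was thinned to 5000 UMIs it was -0.94 (-1.73 to -0.19), from 57 control and 21 knockout cells. The kept barcodes under 5000 UMIs differ between the libraries, with 281 control and 1128 knockout barcodes, of which 23 (8.19%) and 15 (1.33%) were eosinophil lineage cells. A cKit sort, freezing and thawing stand between the marrow and these shares, and their part was not tested.

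The 3 bands were filled unevenly, with intervals that overlap. The low band held 37 control cells, or 38.1% of the 97 (28.5% to 48.6%). It held 10 knockout cells, or 22.2% of the 45 (11.2% to 37.1%). The middle band held 28 and 20 cells, and the high band 32 and 15 cells (33.0% and 33.3%). Because low band cells are deep, those 10 knockout cells gave 307602 of the 628793 knockout UMIs, and summed values lean on them. In particular, 3 knockout cells with over 40000 UMIs gave 24.9% of the knockout UMIs, and 5 such control cells 14.5%.

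Knockout and control eosinophil lineage cells were compared gene by gene on summed CPM, with 5568 genes measured (at least 20 CPM in 1 library and 50 UMIs over both). Of these, 481 (8.64%) were at least 1.5-fold higher in knockout cells and 389 (6.99%) at least 1.5-fold lower, and the median log2 ratio was 0.01. Counting intervals left out 0 for 282 of the higher and 226 of the lower genes. These shares are the background for the lists below.

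Summed over the list, granule mRNA differed by a log2 ratio of 0.16 (0.14 to 0.18) between knockout and control cells. Prg2, which the rule used, held 50105 of the list's 56163 control UMIs. Prg2 had a log2 ratio of 0.19 (0.16 to 0.21), Prg3 0.07 (-0.03 to 0.17) and Epx -0.37 (-0.48 to -0.25). Within bands Prg2 was at -0.43, -0.04 and -0.03, and Epx at -0.47, -0.79 and -0.57. The cells and the bands were cut on Prg2 plus Epx, with at least 2 Epx UMIs, so these values are bound by that choice. They describe the chosen cells and are not read as an effect of the genotype. Of the 6 measured granule genes 1 was higher (Ear6) and 1 lower (Ear2) by 1.5-fold, beside 8.64% and 6.99% of all measured genes. The list's median was 0.13, against -0.34 for the same genes in other kept barcodes. The median's sign depends on the cells used and turned to -0.14 when both libraries were given the same mix of bands.

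As counted gene by gene, the ribonucleases went in different directions. Ear6 stood at 148 CPM in control and 254 CPM in knockout cells, a log2 ratio of 0.78 (0.48 to 1.08), with 0.44 to 1.23 over the alternatives. By band it had -0.13, 1.01 and 0.05, so the difference stood in the middle band, and 3 of 14 alternatives brought it within 1.5-fold. Ear2 stood at 162 and 66.8 CPM, a log2 ratio of -1.28 (-1.79 to -0.81), although 1 knockout cell held 38.1% of its knockout UMIs. Without the cell richest in Ear2 in each library the value was -1.83. Ear1, at 213 and 301 CPM, had a log2 ratio of 0.50 that reached -0.73 under a stricter cell filter (1000 genes and 5% in place of 500 and 10%), and -0.22 with the same mix of bands, so its direction depends on the cells used. The upstream sequences of Ear1 and Ear2 shown above are almost the same, as are their transcript ends. Ear1 held 343 control and 189 knockout UMIs, and Ear2 261 and 42. Their counts may have been split between the near copies, so the lower Ear2 value is not read apart from Ear1. A log2 ratio of both genes together was not computed.

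Il5ra and Siglecf stood higher in knockout cells. Il5ra had a log2 ratio of 0.91 (0.28 to 1.54) from 53 control and 39 knockout UMIs, and 0.79, 0.93 and 0.52 within the low, middle and high bands. Its log2 ratio was 0.42 in other kept barcodes. Siglecf had 0.65 (0.03 to 1.25) from 62 and 38 UMIs, and 0.02, 0.27 and 1.23 within the bands, and it came to 0.53, within 1.5-fold, without the richest cell of each library. Of 16 listed receptors and surface proteins 8 were measured, 2 (Il5ra and Siglecf) were higher by 1.5-fold, against 8.64% of all measured genes, and 0 lower. The list's median was 0.36, beside 0.19 for the same genes in other kept barcodes and 0.25 in basophil or mast ones. Csf2rb, the signalling chain that the interleukin-5 receptor shares with related cytokine receptors, had a log2 ratio of -0.21 (-0.90 to 0.43), and Csf2ra 0.42 (-0.11 to 0.93).

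Among the transcription regulators of the lineage, 1 of 16 measured genes was 1.5-fold higher and 0 were lower, beside 8.64% and 6.99% of all measured genes. The list's median was 0.02. Cebpe had a log2 ratio of -0.03 (-0.20 to 0.15), Spi1 (the myeloid factor PU.1) -0.07 (-0.38 to 0.24) and Xbp1 -0.01 (-0.43 to 0.40). Gata1 had 0.51 (-0.20 to 1.19) from 52 and 29 UMIs and Gata2 0.10. The 1 higher gene was Irf8, a factor of monocytes and dendritic cells, at 0.68, and 1 knockout cell with 51749 UMIs held 48.3% of its UMIs. Without the cells over 40000 UMIs Irf8 had a log2 ratio of -1.54.

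**Figure D4:**
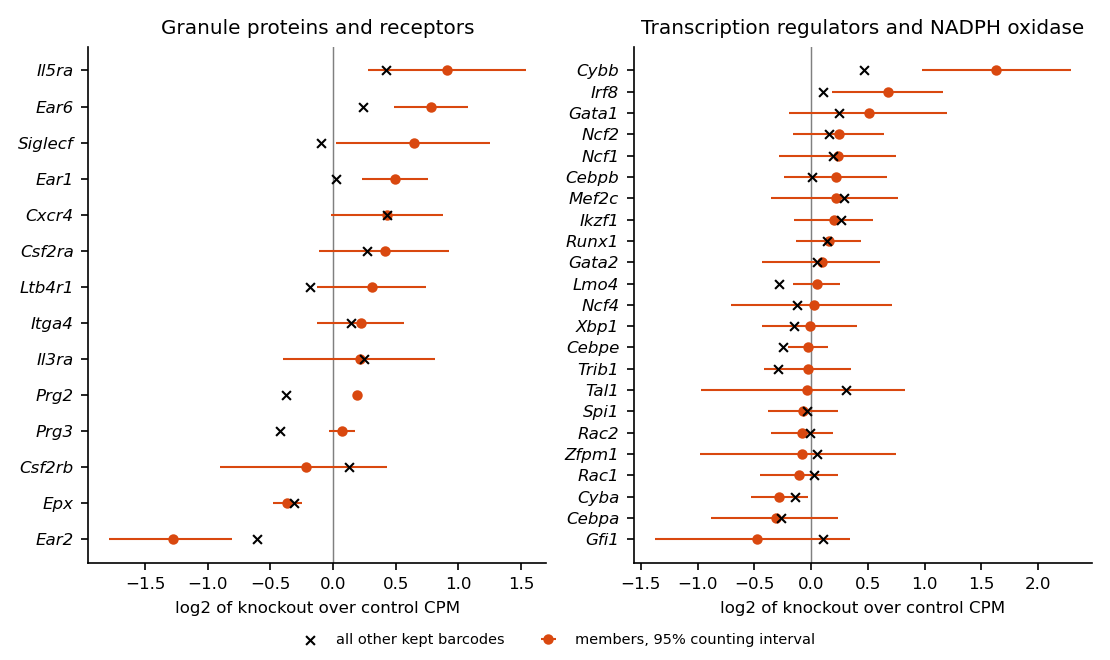
Log2 ratio of knockout over control CPM in eosinophil lineage cells for the measured granule proteins and receptors (left) and transcription regulators and NADPH oxidase subunits (right). Circles carry 95% counting intervals and crosses give the same gene in all other kept barcodes. Ear6, Il5ra and Cybb stand to the right of their crosses and Ear2 to the left, while Cebpe, Spi1 and Xbp1 lie near 0.

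Enzymes of eosinophil effector products were mostly within 1.5-fold. Cybb, the catalytic subunit of the phagocyte NADPH oxidase, was the exception among the 7 oxidase genes, beside 8.64% of all measured genes higher. Cybb stood at 23.6 CPM in control and 73.2 CPM in knockout cells. Its log2 ratio was 1.63 (0.98 to 2.29) against 0.47 in other kept barcodes, and 1.80, 1.28 and 1.37 within the bands. The 46 knockout UMIs came from 19 of 45 cells and the 38 control UMIs from 22 of 97. Its partner Cyba had -0.28 (-0.53 to -0.03), and the list's median was 0.02. Fech, which inserts iron into protoporphyrin to make heme, the cofactor of eosinophil peroxidase, had 1.30 (0.47 to 2.13) from 27 and 26 UMIs. Alas1, the first enzyme of heme synthesis, had -0.21 (-0.52 to 0.09). Of 7 measured heme synthesis genes 1 (Fech) was higher and 0 lower by 1.5-fold, beside 8.64% and 6.99% of all measured genes. The heme list's median was -0.11. Of 6 measured lipid mediator enzymes 2 were higher, against 8.64% of all measured genes: Tbxas1 (thromboxane synthase, 0.68) and Alox5 (5-lipoxygenase, 0.61, interval -0.17 to 1.35). Both calls ended under alternatives, Tbxas1 at 0.30 with each cell weighing the same and Alox5 at 0.38 with no limit on Prss34 plus Mcpt8. Alox15, abundant in mature eosinophils, had 2 control and 0 knockout UMIs.

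Selenoprotein mRNAs were much lower in knockout eosinophil lineage cells. Of 24 listed selenoproteins 14 were measured, 7 were lower by 1.5-fold or more and 1 higher, against 6.99% and 8.64% of all measured genes, and the median log2 ratio was -0.57. Their sum was 3598 CPM in control and 1504 CPM in knockout cells, a log2 ratio of -1.26 (-1.36 to -1.16), and -1.43, -1.06 and -1.14 within the bands. Per cell the selenoprotein share had a median of 0.346% of UMIs in the control library (range 0.120% to 0.647%) and 0.162% in the knockout library (range 0.0526% to 0.459%), and the ranges overlap. The same genes had a median log2 ratio of -0.57 in other kept barcodes.

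The selenoproteins differed widely in how much lower they were. Selenoh, a nuclear selenoprotein, went from 276 CPM to 17.5 CPM, with 444 control and 11 knockout UMIs (log2 ratio -3.98, -4.99 to -3.13). Selenow had -2.91, Selenom -1.73, and the glutathione peroxidases Gpx4, which protects membrane lipids, and Gpx1 had -2.14 and -2.12. Gpx1 was the most abundant of them, at 1498 CPM in control and 344 CPM in knockout cells. Selenot (-0.77) and Selenof (-0.60), both of the endoplasmic reticulum, were lower by less, and with each cell weighing the same they were within 1.5-fold, at -0.28 and -0.45. Txnrd1 (-0.30, -0.90 to 0.27), Msrb1 (-0.06) and Selenos (-0.04) had intervals that include 0, and the higher gene, Dio2 at 0.77 (-0.08 to 1.59), rested on 33 and 22 UMIs and came to -0.032 under the stricter cell filter. Of 7 measured genes of selenocysteine synthesis and insertion, 0 were past 1.5-fold, beside 8.64% of all measured genes higher and 6.99% lower. The list's median was -0.05.

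Targets of NRF2, the oxidative stress factor, stood higher as a list but unevenly. Of 27 listed genes 17 were measured, 3 were higher by 1.5-fold, against 8.64% of all measured genes, and 0 lower. The list's median was 0.41, beside 0.52 in other kept barcodes. The 3 were Blvrb (biliverdin reductase B, 1.04), Gclm (a subunit of glutamate-cysteine ligase, 0.91, 0.45 to 1.36) and Ftl1 (ferritin light chain, 0.87, 0.70 to 1.05). Ftl1 shares sequence with the pseudogene Ftl1-ps1, at 0.97, and reads may be split between them. A single knockout cell with 55207 UMIs held 33.3% of the knockout Gclm UMIs, and Gclm was at 1.38, 0.13 and 0.16 over the low, middle and high bands. Without the cells over 40000 UMIs Gclm had 0.58 and Ftl1 0.49, both within 1.5-fold, and at a Prg2 plus Epx limit of 0.5% Gclm had 0.33.

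Other NRF2 targets showed smaller or scarcer signals. Gstm1 had a log2 ratio of 0.53 (0.22 to 0.83), Gsr (glutathione reductase) 0.48 (0.25 to 0.70) and Pgd of the pentose phosphate pathway 0.43 (0.08 to 0.78). Prdx1 (0.07), Txn1 (-0.15) and Tkt (0.01) had intervals that include 0. Slc7a11, the cystine importer, missed the floor of 50 UMIs, with 7 control and 29 knockout UMIs (4.35 and 46.1 CPM, log2 ratio 3.41, 2.18 to 4.84), beside 3.51 in other kept barcodes. Nqo1 had 0 and 2 UMIs, Hmox1 3 and 0. TGACNNNGC, the core of the antioxidant response element, was searched on either strand in the 250 bases upstream. It was found for 7 of the 22 listed targets with a RefSeq promoter entry, among them Gclm, Pir and Prdx1. Of all promoters 10.2% held it. That share counts single promoters, while a target counted if any of its entries matched, so the 2 are unlike measures.

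**Figure D5:**
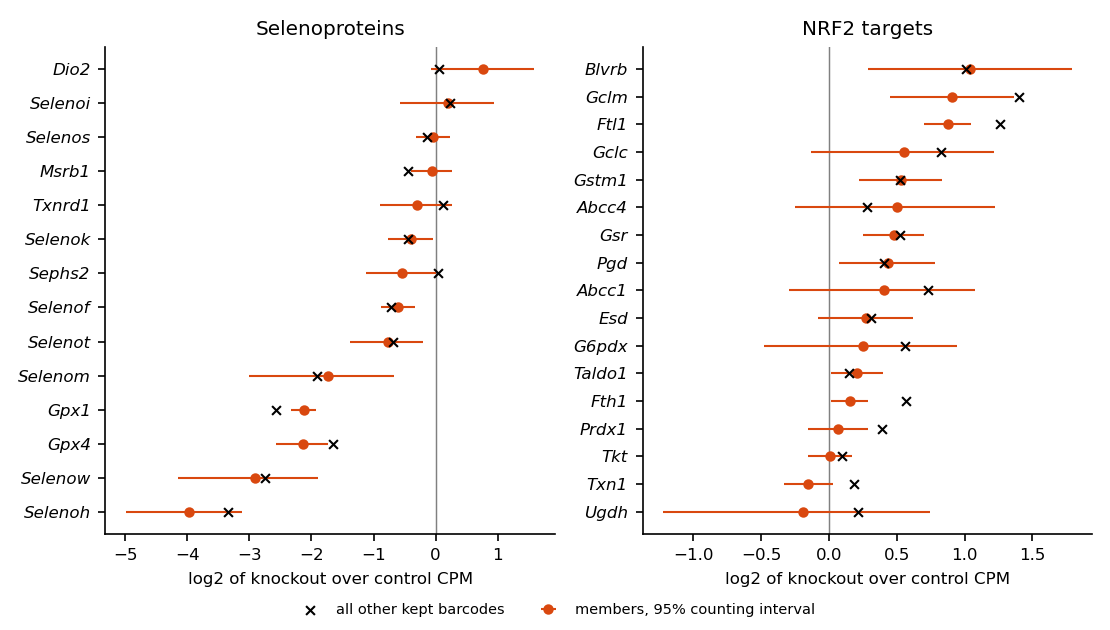
Log2 ratio of knockout over control CPM for the measured selenoproteins (left) and NRF2 targets (right) in eosinophil lineage cells (circles with 95% counting intervals) and in all other kept barcodes (crosses). Selenoh, Selenow, Gpx1 and Gpx4 lie furthest to the left, and Gclm, Blvrb and Ftl1 furthest to the right.

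Outside these lists, the genes named by their counting intervals fell into some that were shared with all other kept barcodes and some that were not. Hist1h2ap (2.79 in eosinophil lineage cells, 3.04 elsewhere), Gm10076 (2.42, 2.49), Hist1h2ae (1.75, 1.64) and Rpl35 (1.26, 1.38) were as high elsewhere, and belong to families of near-identical copies or ribosomal proteins. Rgs1, a brake on chemokine receptor signalling, had 1.59 (1.30 to 1.88) in eosinophil lineage cells and -0.01 elsewhere, with 182 control and 214 knockout UMIs. A single knockout cell held 29.4% of the Rgs1 UMIs, 32 of 45 knockout and 58 of 97 control cells held it, and its log2 ratio lay between 1.21 and 1.96 over the alternatives. Tnfaip3, an inhibitor of NF-κB signalling, had 1.16 against 0.03 elsewhere, and 1 knockout cell held 23.5% of its UMIs. The chemokine gene Ccl3 had 1.67, but 1 knockout cell held 52.2% of its UMIs and the value was 0.14 without cells over 40000 UMIs. Ano6 (1.57), Prdm2 (1.54), Asph (1.35), Ppp1r18 (1.35) and St8sia4 (1.26) had between 0.11 and 0.29 elsewhere, and rested on 33 to 62 knockout UMIs each. Whether these values differ between the lineage and other barcodes was not tested.

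The lowest genes apart from selenoproteins were led by Ctse, the endosomal protease cathepsin E, at 150.5 CPM in control and 4.77 CPM in knockout cells (242 and 3 UMIs, log2 ratio -4.98, -7.27 to -3.41). Ctse was lower elsewhere too, at -3.06. Rnaset2b, a ribonuclease (-1.82, elsewhere -1.40), and Snhg9 (-1.64, elsewhere -1.02) were low in both. Egfl7 (55 and 2 UMIs, -3.43, -6.51 to -1.50), Chchd10 (68 and 6 UMIs, -2.15, but -0.28 with each cell weighing the same), Gm26532 (-2.21) and 2410004B18Rik (48 and 3 UMIs, -2.65, -4.97 to -1.01) were nearer to 0 elsewhere, none of the 4 below -0.49. The chemokine gene Cxcl2 had -1.82, with 29.9% of its control UMIs in 1 cell, and 0.05 when the limit on Prss34 plus Mcpt8 was dropped.

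Camp, S100a9 and S100a8, genes of maturing neutrophils, were among the lowest too, and a single control cell carried most of the Camp and S100a9 UMIs. This cell had 6100 UMIs, 4.07% of them Prg2 plus Epx and 4.21% maturing neutrophil markers, where the next highest cell had 0.184%. It held 111 of the 115 Camp, 74 of the 101 S100a9 and 52 of the 179 S100a8 UMIs, and Scrublet had not marked it. The knockout cells held 0 Camp, 5 S100a9 and 12 S100a8 UMIs. The 8 maturing neutrophil markers summed to 266 CPM in control and 33.4 CPM in knockout cells, and to 107 CPM in control cells without that cell. Without it S100a9 had a log2 ratio of -1.08 in place of -2.98 and S100a8 -2.05 in place of -2.54. Neutrophil progenitor markers were lower by less, with 3 of 5 measured genes past 1.5-fold, against 6.99% of all measured genes (Ctsg at -0.91, Prtn3 at -0.77, Elane at -0.72), and Mpo at -0.21. With the same mix of bands Prtn3 came to -0.54, and at a Prg2 plus Epx limit of 0.1% Elane came to -0.37, both within 1.5-fold. Within the bands their sum, given above, had log2 ratios of -0.47, -0.32 and 0.00. In lymphoid barcodes Ctsg stood at 320 and 203 CPM.

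S phase genes were lower in part, and G2 and M phase genes were mostly within 1.5-fold. Of 22 S phase genes 5 were lower by 1.5-fold, against 6.99% of all measured genes, and 0 higher. The list's median was -0.21 beside 0.06 in other kept barcodes. The 5 were Rrm2 (-0.94, -1.67 to -0.27), a subunit of ribonucleotide reductase, Dut (-0.83), Ung (-0.71), Uhrf1 (-0.68) and Mcm7 (-0.66). Each of the 5 came within 1.5-fold under at least 1 alternative: Rrm2 at -0.072 and Uhrf1 at -0.25 with each cell weighing the same, Ung at -0.24 at a Prg2 plus Epx limit of 0.5%, Mcm7 at -0.48 with no limit on Prss34 plus Mcpt8, and Dut at -0.54 with no Epx limit. Of 20 G2 and M phase genes 1 was higher (Nusap1, 0.64, 0.12 to 1.15, but 0.14 at the 0.5% limit) and 0 lower, a share under the 8.64% of all measured genes. Their median was 0.30, with 0.049 to 0.61 over the alternatives, beside 0.11 elsewhere. Summed within bands, S phase genes had log2 ratios of -0.02, -0.66 and -0.50, and G2 and M phase genes 0.30, 0.53 and 0.45. Per cell, the S phase share had a median of 0.194% of UMIs in control and 0.138% in knockout cells, and the G2 and M phase share 0.0903% and 0.127%, with ranges that overlap almost fully.

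Most secretory and respiratory genes were within 1.5-fold. Of 25 measured genes of endoplasmic reticulum folding and translocation 3 were lower by 1.5-fold (Sdf2l1 at -0.88, Hspa5 at -0.67, Dnajb11 at -0.59) and 0 higher. That is a share of lower genes above the 6.99% of all measured genes. The list's median was -0.24 beside -0.13 elsewhere. Each of the 3 came within 1.5-fold under an alternative: Sdf2l1 at -0.54 without cells over 40000 UMIs, Hspa5 at -0.56 under the stricter cell filter and Dnajb11 at -0.53 with no Epx limit. Hspa5 stood at 1706 CPM in control and 1072 CPM in knockout cells, and at -0.50, -0.72 and -1.24 over the bands. Its basophil or mast value was close, at -0.62. Of 26 nuclear oxidative phosphorylation genes 1 was lower by 1.5-fold (Cycs, cytochrome c, at -1.20) and 0 higher, against 6.99% of all measured genes, and the median was -0.28 beside -0.10 elsewhere. The 13 mitochondrially encoded transcripts had a median of the other sign, 0.23, with all 13 within 1.5-fold, beside 0.17 elsewhere, and a filter on mitochondrial UMIs had been applied to these barcodes. Antioxidant enzymes without selenium had a median of -0.11, with 2 of 14 higher (Mgst1 at 1.31 from 30 and 29 UMIs, but 0.16 with each cell weighing the same, and Glrx at 0.77, 0.26 to 1.27) and 0 lower. Over all measured genes 8.64% were higher.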

How the data were processed

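The authors deposited whole-number UMI counts per gene and barcode for 32285 genes, per the file headers, made by 10x 3′ v3.1 chemistry. The submitters' processing notes name Cell Ranger 6.1.2 and mm10. How strand and cell calling were handled, and which annotation was used, the sources used here do not give. No barcode held under 500 UMIs. Genotypes were taken from the labels. The cell rule, gene lists and named genes were chosen with earlier results of these data known.

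UMIs were summed over the cells of a class and scaled by the total of all genes (CPM). Sums have exact Poisson intervals, ratios exact conditional binomial intervals and shares Clopper-Pearson intervals, all 95% (scipy 1.17.1). With 1 library per genotype no p-value was made, and a gene was called past 1.5-fold. Intervals were tested on simulated Poisson counts, the model they assume. The simulation left out the clustering of a gene's UMIs in single cells, so it does not show how the intervals cover that. Scrublet in scanpy 1.11.5 ran at an expected rate of 10% and marked 146 control and 52 knockout barcodes, which stayed in. Shares were also taken after thinning each barcode of at least 5000 UMIs to 5000. Named genes were the rule's and the eosinophil lists' genes, selenoproteins, NRF2 targets, the 15 highest and 15 lowest measured genes past 1.5-fold, ranked by the interval bound nearest to 0, the 25 highest against other kept barcodes in both libraries, and examples of other lists. Genes are given as the files' symbols. Promoters came from the RefSeq table of GRCm38.p6 and transcripts and gene coordinates from GENCODE M21. The alternatives tried stand under the dependence on the processing.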

Additional observations from a re-analysis of the deposited data

Results flagged for a closer look

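Vcam1, an adhesion molecule of macrophages and some progenitors, had a log2 ratio of 1.31 of knockout over control in eosinophil lineage cells and of -2.25 in basophil or mast barcodes, so the sign was opposite in the 2 classes. The eosinophil value rested on 35 control and 34 knockout UMIs, and the difference between the classes was not tested.

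Barcodes outside the cell filter also held eosinophil granule mRNA. The marker limits of the lineage were met by 7 of 6180 control barcodes that were not kept (0.113%, 0.0456% to 0.233%, with 0.0485% allowed by a count of 0) and by 6 of 4850 knockout ones (0.124%, 0.0454% to 0.269%, with 0.0619% allowed by a count of 0). Of these, 6 control and 6 knockout barcodes failed only on mitochondrial UMIs, at a median of 26.4% and 14.4% over all that met the limits and a median depth of 2948 and 2895 UMIs.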

How the results depend on the processing

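The share of eosinophil lineage cells kept its direction and an interval below 0 under the 8 alternatives tried, with log2 ratios from -1.01 to -0.50; the latter left out the Epx limit, with 121 control and 70 knockout cells. Counts of genes past 1.5-fold moved with the method. Weighting each cell the same gave 843 higher and 916 lower genes, a floor of 100 CPM gave 60 and 67 of 1539 measured, a floor of 10 UMIs alone gave 1453 and 1059 of 9458, and leaving out, for each gene, the cell with most of its UMIs gave 597 lower. The granule list's median was -0.046 under a stricter cell filter (1000 genes, 5% mitochondrial UMIs), -0.14 with the same mix of bands, 0.34 at a Prg2 plus Epx limit of 0.5%, 0.053 at 0.1%, 0.065 with equal weight, 0.011 with no Epx limit and 0.30 without cells over 40000 UMIs. The neutrophil progenitor markers' median was -1.06, -0.45, -0.55, -0.37 and -0.57 under that filter, the same mix of bands, the 0.5% and 0.1% limits and without the deepest cells. Of single genes, Fcer1a went from 0.97 to -0.062 and Cxcl2 from -1.82 to 0.052 with no Prss34 plus Mcpt8 limit, and Irf8 from 0.68 to -1.54 and Ms4a6c from 0.65 to -0.11 without cells over 40000 UMIs. Calls of single genes that ended under an alternative stand beside those genes. The causes were not tested. For the other lists the median stayed between the medians of its genes' lower and upper counting bounds, a wide span. Of 19 lists with a median, 5 changed sign: the granule list, NADPH oxidase (-0.20 to 0.063), transcription regulators (-0.047 to 0.16), basophil or mast markers (-0.12 to 0.25) and selenocysteine synthesis (-0.26 to 0.026). S phase ranged from -0.51 to -0.11 and heme synthesis from -0.32 to nearly 0. Median-of-ratios scaling shifted the median gene by 0.01. The Epx limit, the 1 control cell with Camp, the deepest cells and the top cell per gene were chosen after seeing the data. No paired analysis was possible because each genotype is 1 library. Depth limits genes under 50 UMIs: Il5ra, Cybb and Fech rest on 26 to 53 UMIs per library.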

Other observations

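Mast and basophil marker mRNAs were uneven in eosinophil lineage cells. Of 11 markers 6 were measured, 3 had 0 UMIs in control and 4 in knockout cells, and Fcer1a stood at 26.7 and 52.5 CPM against 495 and 653 CPM in basophil or mast barcodes. Cpa3, the mast cell carboxypeptidase, stood at 453 CPM in control and 606 CPM in knockout cells, between the 131 and 96.2 CPM of all other kept barcodes and the 1928 and 1689 CPM of basophil or mast barcodes. Ms4a2, a chain of the high-affinity IgE receptor, stood at 133 and 127 CPM against 768 and 802 CPM there. Cpa3 had a log2 ratio of knockout over control of 0.42 (0.24 to 0.60) in eosinophil lineage cells and of -0.45 in other kept barcodes, and at -0.15, 1.15 and 0.66 over the low, middle and high bands the value was not of 1 sign.

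Nucleolin (Ncl), which binds selenoprotein mRNA besides its role in ribosome assembly, stood at 1301 CPM in control and 938 CPM in knockout cells, a log2 ratio of -0.47 (-0.61 to -0.34) beside -0.02 in other kept barcodes.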
